A study of Homo sapiens with 6 samples.

Results

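Keratins are the intermediate filament proteins of epithelial cells. The 10 keratin genes described here, KRT5, KRT6A, KRT7, KRT8, KRT15, KRT17, KRT18, KRT19, KRT80 and KRT81, were picked by gene symbol out of 60623 gene IDs, with the measured values of the same libraries in view. The list does not record whether level or change decided a choice, so the members' values are given as a description without a test. RNA came from the DU145 line, grown from a human prostate cancer and labelled WT, which had been given either 1 µM CCS1477 (3 libraries) or the solvent DMSO (3 libraries), in each case for 24 h. CCS1477 (inobrodib) is a small molecule that blocks the bromodomains of p300 and CBP, a pair of histone acetyltransferases, and the study asked how it changes transcription in these cells. The labels do not say whether the 3 libraries of a group came from separate cultures, so the spread between them may be technical, and all results concern 1 cell line.

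A keratin filament is built from pairs of 1 type I and 1 type II chain, so that neither type forms filaments alone. KRT8 (type II) and KRT18 (type I) are the basic pair of simple epithelia and mark luminal cells of the prostate, usually beside KRT7 (type II) and KRT19 (type I) in ducts and glands. KRT5 (type II) and KRT15 (type I) belong to the basal layer of layered epithelia, KRT6A (type II) and KRT17 (type I) are made in stressed or wounded epithelium, KRT80 is a type II chain found in many epithelia, and KRT81 is a type II chain best known from hair. Most type I genes lie in a cluster on chromosome 17 and the type II genes in a cluster on chromosome 12, where KRT18, a type I gene, sits beside KRT8.

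Related genes can share reads, and most of the expressed members had few exact runs of sequence in common with the rest of the family. Of all runs of 50 bases in the transcripts annotated by GENCODE 29, 0.164% in KRT7, 0.977% in KRT19, 0.364% in KRT80 and 0.227% in KRT15 also occurred in another keratin gene or pseudogene. The share was 9.43% for KRT8 and 14.4% for KRT18, which have many processed pseudogenes. It was 43.7% for KRT81, of which the hair keratin gene KRT86 alone held 37.6%. The annotated span of KRT86 also contains KRT81 on the other strand, so counts of KRT81 and KRT86 are uncertain as to gene. KRT8 and KRT18 overlap at their annotated starts on opposite strands, and KRT7-AS lies within KRT7 on the other strand. The strandedness of the counting is not given in the sources used here, so reads of these overlaps cannot be told apart. The end of KRT7 also overlaps the start of KRT86 on the same strand, where strandedness would not separate the reads.

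Library totals were 8691393 to 9412893 counts for CCS1477 and 8286883 to 11956748 for DMSO. The first principal component held 48.5% of the variance and separated the groups, and the second held 19.9%, with DMSO 2 and DMSO 3 at its ends. Over all genes, 1079 of 14928 tested were higher and 1597 lower with CCS1477 (edgeR quasi-likelihood test, adjusted p under 0.05), so 59.7% of the calls were lower, against 48.3% with scaling by library size alone. Without DMSO 1 the counts were 555 and 973, without CCS1477 2 they were 489 and 925, and without CCS1477 3 they were 487 and 1042. All 10 epithelial markers checked, among them EPCAM and CDH1, were detected. KLK2, KLK3, HOXB13 and FOLH1, markers of prostate luminal cells, had no read in any library. The immune markers PTPRC, CD3D and CD3E and the fibroblast markers DCN, LUM and COL3A1 likewise had none.

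Of the 10 members, 7 passed the filter on low counts and 3 did not. The tested members were KRT7, KRT8, KRT15, KRT18, KRT19, KRT80 and KRT81. KRT81 reached the filter's minimum of 1.10 CPM (counts scaled to the library's total count) only in the DMSO libraries, so it could be kept only by being higher there, while the other 6 reached it in all 6 libraries. Under the threshold used for all genes, 5 of the 7 were lower with CCS1477 and 0 higher, where 10.7% of all tested genes were called lower, 7.23% higher and 17.9% in either direction. The 0 higher members were also 0 at an unadjusted p under 0.05, in DESeq2 and in limma-voom. Values of CPM in the CCS1477 libraries lay wholly below those in the DMSO libraries for the same 5 genes, where 16.5% of all tested genes did. The median log2 fold change was -0.53 over the 7 and -0.0030 over all genes tested. Since the members were chosen with the values of this contrast in view, nothing is read from these shares. Calls of members given below, in the main fit or in alternative settings, reuse the same 6 libraries and are likewise a description. In bulk RNA, fewer cells making a transcript and less RNA in each cell cannot be told apart.

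**Figure D1:**
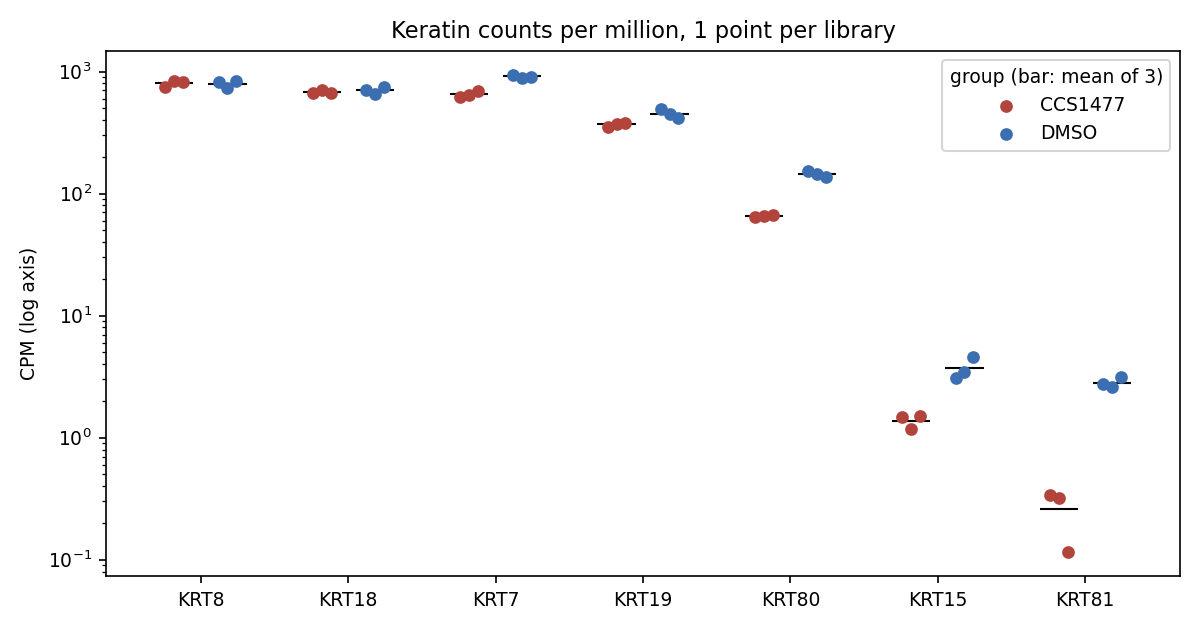
CPM of the 7 tested keratins on a log axis, with 1 point per library and a bar at the mean of 3, CCS1477 left of DMSO for each gene. KRT8 and KRT18 overlap between groups at about the same level, while the CCS1477 points of KRT7, KRT19, KRT80, KRT15 and KRT81 lie below all DMSO points.

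KRT8 and KRT18, the simple-epithelium pair, were at nearly the same level in the 2 groups. KRT8 (chromosome 12, 52897187 to 52949954) had 745, 836 and 823 CPM in CCS1477 libraries 1 to 3, against 816, 727 and 841 CPM in DMSO libraries 1 to 3. The groups overlapped, with means of 802 ± 49.4 CPM in CCS1477 and 795 ± 59.9 CPM in DMSO (SD, n = 3 each) and a log2 fold change of -0.04 ± 0.09 (SE). KRT18 (chromosome 12, 52948871 to 52952906) had 665, 710.6 and 668 CPM in CCS1477, against 710.1, 654 and 743 CPM in DMSO. These values overlapped too, and the means were 681 ± 25.5 CPM in CCS1477 and 702 ± 45.0 CPM in DMSO, a log2 fold change of -0.09 ± 0.08. Neither gene was called in any of the 15 alternative settings, and the fold change of KRT8 ran from -0.08 to 0.03 over them, so its sign depended on the setting. Because the pseudogenes of KRT8 and KRT18 can take reads from them, the copies were counted as well. The pseudogenes of KRT8 in the files together added 1.20% to its counts, and those of KRT18 added 0.257%. The pseudogene with the most reads, KRT8P12, had 5.77 ± 1.36 CPM in CCS1477 and 7.16 ± 2.26 CPM in DMSO (SD, n = 3 each, adjusted p = 0.382), and it did not pass the test. KRT8P3 averaged 0.960 ± 0.297 CPM in CCS1477 and 1.61 ± 0.489 CPM in DMSO (adjusted p = 0.256). KRT18P59, the most read copy of KRT18, had 8 counts over the CCS1477 libraries and 16 over the DMSO libraries and was not tested.

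KRT7 and KRT19, the other chains of ducts and glands, were lower with CCS1477, KRT7 by the wider margin. KRT7 (chromosome 12, 52232520 to 52252186) had 618, 644 and 696 CPM in CCS1477, against 943, 889 and 901 CPM in DMSO. Every CCS1477 library lay below every DMSO library. The means were 653 ± 39.8 CPM in CCS1477 and 911 ± 28.7 CPM in DMSO, a log2 fold change of -0.53 ± 0.08 (SE, n = 3 each) that was called in 15 of 15 alternative settings. KRT7-AS, which lies on the other strand within KRT7, had 10.3 ± 2.29 CPM in CCS1477 and 14.6 ± 1.45 CPM in DMSO, a log2 fold change of -0.55 ± 0.19 that did not pass the test (adjusted p = 0.0680). How much of its count comes from KRT7 reads was not tested.

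KRT19 (chromosome 17, 41523617 to 41528308) had 351, 373 and 382 CPM in CCS1477, against 492, 450.3 and 413 CPM in DMSO. The groups did not overlap in CPM. In TPM, which scales by transcript length and library total, they did, since CCS1477 3 stood at 459 and DMSO 3 at 458 TPM. The means were 368 ± 16.2 CPM in CCS1477 and 452 ± 39.1 CPM in DMSO (SD, n = 3 each), a log2 fold change of -0.34 ± 0.09. KRT19 was called in 8 of 15 alternative settings. Its call was lost without CCS1477 1, CCS1477 2, CCS1477 3 or DMSO 1, where the fold change lay between -0.37 and -0.27, and with limma on log2 TPM, where it was -0.26 with a pseudocount of either 1 or 0.1.

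KRT80, a type II chain with an overall level far below the 4 genes above, was lower in CCS1477 with very little spread between libraries. KRT80 (chromosome 12, 52168996 to 52192014) had 64.0, 65.1 and 66.3 CPM in CCS1477, against 153, 143 and 136 CPM in DMSO. The groups lay far apart relative to that spread. The means were 65.1 ± 1.14 CPM in CCS1477 and 144 ± 8.18 CPM in DMSO, a log2 fold change of -1.19 ± 0.09 (SE, n = 3 each). It was called in 15 of 15 alternative settings, with fold changes from -1.24 to -1.10.

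KRT15 and KRT81 were rare in both groups, and their values rest on few reads. KRT15, a basal-layer chain (chromosome 17, 41513745 to 41522529), had 13, 11 and 13 counts in CCS1477 libraries, against 37, 41 and 38 counts in DMSO libraries. That is 1.38 ± 0.185 CPM in CCS1477 and 3.71 ± 0.781 CPM in DMSO (SD, n = 3 each), with no overlap between the groups and a log2 fold change of -1.45 ± 0.34. Its call was lost without CCS1477 2, where the fold change was -1.34. KRT81, the hair-type chain (chromosome 12, 52285913 to 52291534), had 2.64, 3 and 1 estimated counts in CCS1477 libraries, against 33, 31 and 26 in DMSO libraries. Summed over libraries and scaled by depth, its level in CCS1477 was 0.0931 of that in DMSO, with an exact 95% interval of 0.0364 to 0.200 that covers counting error only. KRT86, which shares much of its sequence with KRT81, had 0.36, 0 and 0 estimated counts in CCS1477 libraries, against 4, 6 and 3 in DMSO libraries.

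KRT5, KRT6A and KRT17 were at or under the limit of detection. KRT5, the basal-layer type II chain, had no read in any library. A count of 0 allows up to 0.319 to 0.345 CPM in the CCS1477 libraries and 0.251 to 0.362 CPM in the DMSO libraries, taking 3 counts as the limit. KRT6A had 3 counts in CCS1477 1 and 0 in the other 5 libraries, and KRT17 had 1 count in DMSO 2 and 0 elsewhere. No difference between the groups was detectable for these 3 genes at this depth. TP63, the basal-cell transcription factor, was likewise near 0, with 1 read in CCS1477 2.

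**Figure D2:**
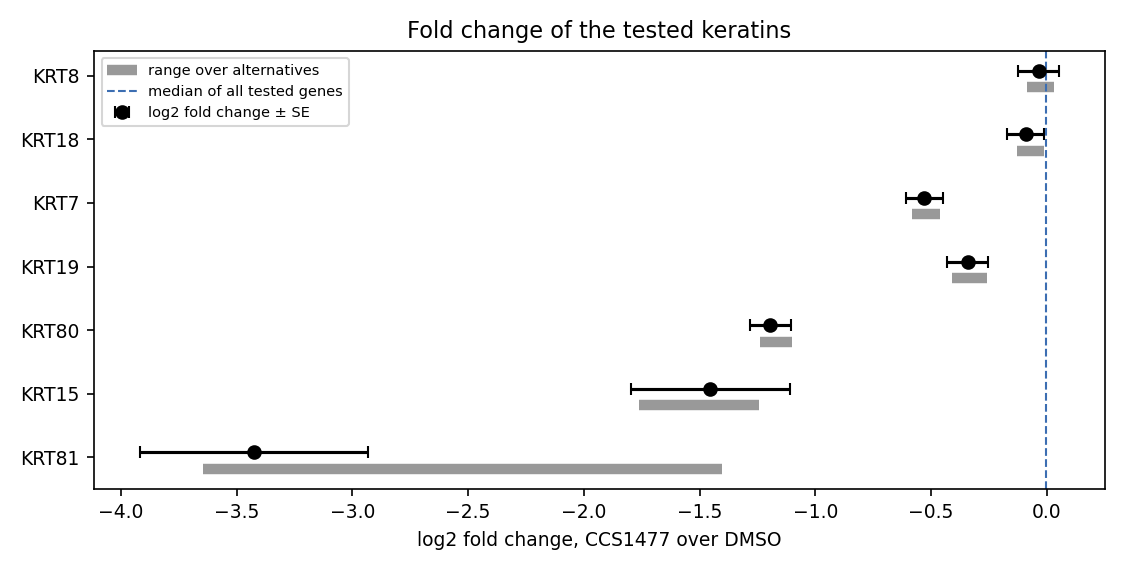
Log2 fold change of the 7 tested keratins, CCS1477 over DMSO, as points with SE, with a grey bar for the range over the alternative settings and a dashed line at the median of all tested genes. KRT8 and KRT18 lie close to the median, KRT7 and KRT19 lie between -0.6 and -0.2 in all settings, KRT80 lies near -1.2, and KRT81 has the widest range.

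The authors' TPM values, which divide by transcript length, allow the members to be set against each other. In the CCS1477 libraries KRT18 was first with 798 ± 31.7 TPM, followed by KRT8 with 728 ± 40.5, KRT7 with 682 ± 34.6, KRT19 with 447 ± 15.9 and KRT80 with 23.8 ± 0.143 TPM. In the DMSO libraries KRT7 was first with 940.3 ± 58.3 TPM, followed by KRT18 with 805 ± 34.8, KRT8 with 712 ± 36.9, KRT19 with 538 ± 73.6 and KRT80 with 52.5 ± 5.99 TPM (SD, n = 3 each). This order was the same in all 3 libraries of a group: KRT7 stood behind KRT18 and KRT8 in each CCS1477 library and ahead of them in each DMSO library. Over libraries, the only neighbours in these orders whose values overlapped were KRT8 and KRT7 in CCS1477, at 682 to 758 and 647 to 717 TPM. KRT15 stood at 1.10 ± 0.142 TPM in CCS1477 and 4.02 ± 0.820 TPM in DMSO, and KRT81 at 0.223 ± 0.122 TPM in CCS1477 and 2.22 ± 0.0833 TPM in DMSO.

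The summed keratin transcripts of the 10 members were lower in CCS1477. They came to 2570, 2749 and 2717 TPM in CCS1477 libraries 1 to 3, against 3257, 3035 and 2868 TPM in DMSO libraries 1 to 3. The groups did not overlap, and the mean in CCS1477 was 0.877 of that in DMSO. KRT7 accounted for 69.0% of the difference between the mean sums, KRT19 for 24.3% and KRT80 for 7.66%. KRT7, KRT8, KRT18 and KRT19 together made up 99.1% ± 0.0504 of the sum in CCS1477 and 98.1% ± 0.0822 in DMSO. Within it, the share of KRT7 was 25.4% ± 0.834 in CCS1477 and 30.8% ± 0.446 in DMSO, and the share of KRT8 was 27.1% ± 0.552 in CCS1477 and 23.3% ± 0.680 in DMSO (SD, n = 3 each).

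**Figure D3:**
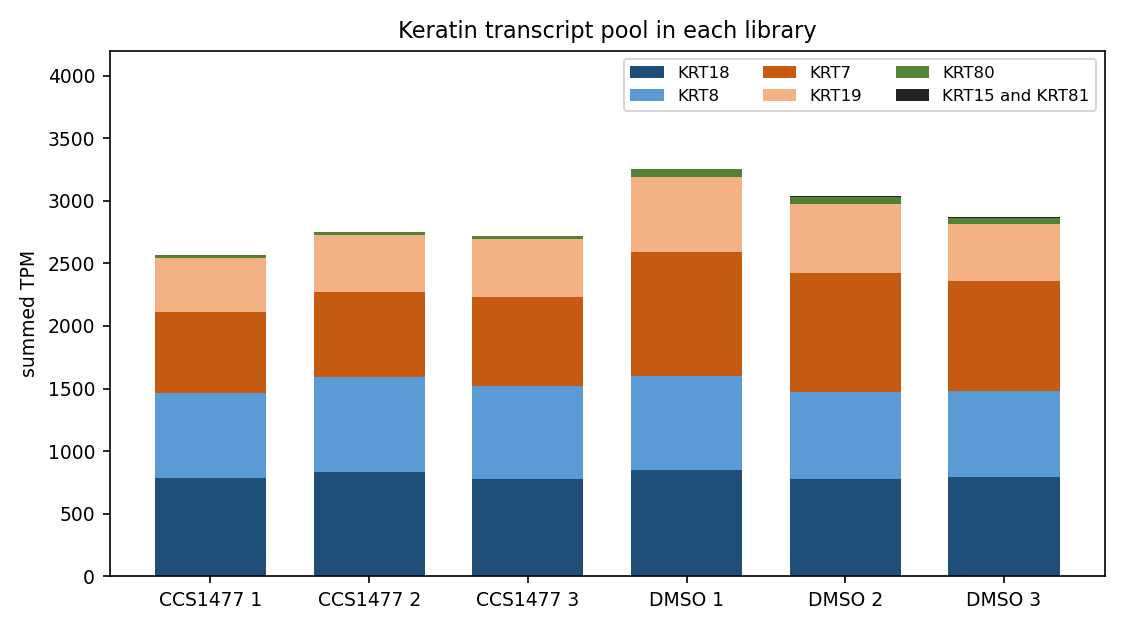
Summed TPM of the keratins in each library, stacked by gene, CCS1477 libraries on the left and DMSO libraries on the right. The KRT18 and KRT8 blocks have similar heights in all 6 bars, the KRT7 block is shorter in the 3 CCS1477 bars, and KRT15 and KRT81 are too thin to see.

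Ratios between chains within a library do not depend on how that library was scaled. The ratio of KRT8 to KRT18 was 0.867, 0.910 and 0.961 in CCS1477, against 0.893, 0.885 and 0.874 in DMSO, and the groups overlapped. The ratio of KRT7 to KRT8, both type II, was 0.950, 0.898 and 0.964 in CCS1477, against 1.32, 1.38 and 1.27 in DMSO. These groups did not overlap and lay on opposite sides of 1. The ratio of KRT19 to KRT18, both type I, was 0.545, 0.543 and 0.594 in CCS1477, against 0.713, 0.710 and 0.579 in DMSO, where DMSO 3 fell among the CCS1477 values. Summed over members, type II chains outnumbered type I chains by a ratio of 1.15 ± 0.0467 in CCS1477 and 1.27 ± 0.0223 in DMSO (SD, n = 3 each), again without overlap.

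**Figure D4:**
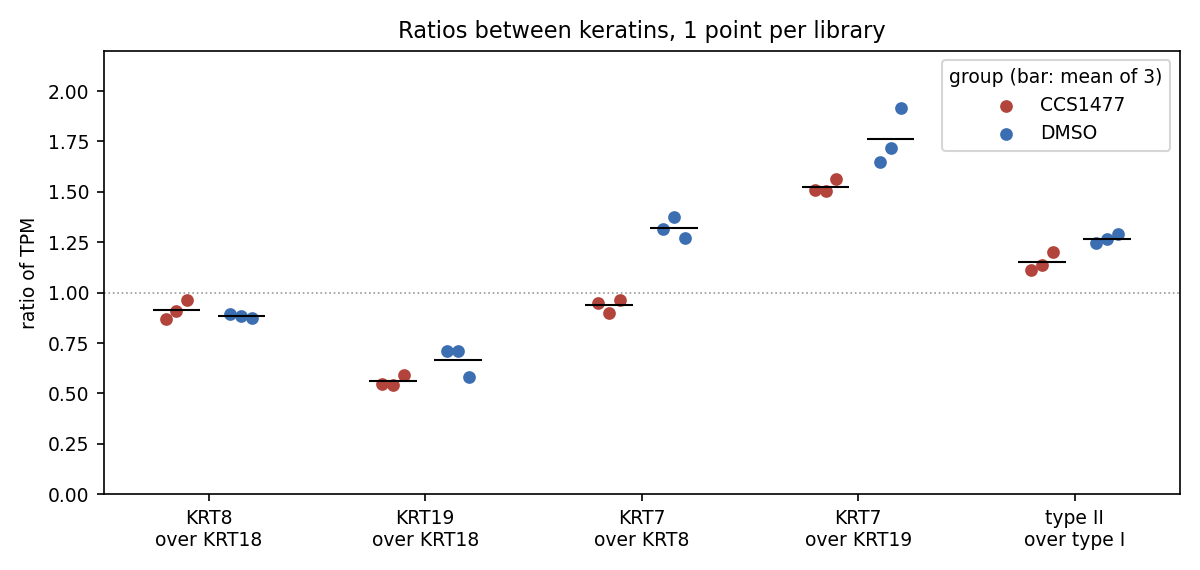
Ratios of TPM between keratins in each library, CCS1477 left of DMSO, with a bar at the mean of 3 and a dotted line at 1. KRT8 over KRT18 overlaps between the groups, KRT7 over KRT8 lies below 1 in the 3 CCS1477 libraries and above 1 in the 3 DMSO libraries, and 1 DMSO library of KRT19 over KRT18 lies among the CCS1477 points.

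Over the 6 libraries, the log2 CPM of KRT7 and KRT80 had a Pearson correlation of 0.983 and that of KRT7 and KRT19 of 0.944. KRT8 and KRT18 had 0.802, and KRT7 and KRT8 had 0.327. All 6 points share the same libraries and 2 groups, so these values mainly restate which genes differed between the groups. KRT7 had the highest mean TPM of the members, and the 3 tested genes most like it over the 6 libraries were the aldehyde dehydrogenase ALDH3B1 (r = 0.999), the calcium-binding protein CALB2 (r = 0.999) and the Cdc42 effector CDC42EP4 (r = 0.997). ALDH3B1 had 47.6 ± 5.84 CPM in CCS1477 and 93.6 ± 6.84 CPM in DMSO (SD, n = 3 each). CALB2 had 0, 1 and 3 counts in CCS1477 libraries, against 45, 30 and 22 in DMSO libraries. It reached the filter's minimum of 1.10 CPM only in the DMSO libraries, so it could be kept only by being higher there. Its r rests on few reads in CCS1477. The 3 genes were picked as the closest of 14928 genes over 6 libraries, so the values of r are a description.

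Genes called and not called lay within the same cluster on chromosome 12. This type II cluster, with KRT18, spans 52168996 to 52952906 in the coordinates of the files and held 27 keratin genes, of which 11 had a read. KRT80 and KRT7 at its start were lower, and KRT8 and KRT18 at its end were not called. The type I cluster on chromosome 17 spans 40654665 to 41624842 and held 28 keratin genes, of which 8 had a read. KRT15 and KRT19, neighbours there, were both called lower. The nearest tested genes outside the clusters did not pass the test. On chromosome 12 these were the autophagy gene ATG101, at a log2 fold change of -0.07 ± 0.16 (adjusted p = 0.817), and EIF4B beside KRT18, at -0.18 ± 0.08 (adjusted p = 0.171). On chromosome 17 they were the chromatin remodelling subunit SMARCE1, at 0.03 ± 0.10 (adjusted p = 0.876), and the translation factor EIF1, at 0.17 ± 0.09 (adjusted p = 0.237).

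Among the 45 other keratin genes in the files, 10 had a read and only KRT10 passed the low-count filter. KRT10, the type I chain of the upper epidermis, had 15.1, 19.97 and 16.3 CPM in CCS1477, against 17.3, 12.99 and 37.5 CPM in DMSO. The groups overlapped, DMSO 3 stood above all other libraries, and the log2 fold change of -0.42 ± 0.31 did not pass the test (adjusted p = 0.386, unadjusted p = 0.197). It was called in none of DESeq2, limma-voom and the other alternatives. The remaining keratins had 12 or fewer counts in any library. KRT16, a stress keratin, had 0 counts in all CCS1477 libraries, against 10, 8 and 6 in DMSO libraries. Scaled by depth, the exact 95% interval for its level in CCS1477 relative to DMSO reached up to 0.199, for counting error only. KRT4, a type II chain of moist layered epithelia, had 0 counts in all CCS1477 libraries, against 3, 12 and 2 in DMSO libraries, so most of its reads came from DMSO 2 and no fold is given. KRT16 and KRT4 were called lower only when no filter was applied.

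Other intermediate filament genes moved in both directions. CCS1477 raised 2 of the 12 tested, lowered 2 and left 8 short of the threshold, and their median log2 fold change was -0.0067. Among all tested genes, 7.23% were called higher and 10.7% lower. NEFL, the light chain of neurofilaments, rose to 23.7 ± 4.81 CPM in CCS1477, against 12.5 ± 1.54 CPM in DMSO, a log2 fold change of 0.86 ± 0.18 (adjusted p = 0.00607). PRPH, the neuronal filament peripherin, rose to 3.20 ± 0.0935 CPM, against 1.35 ± 0.154 CPM in DMSO (adjusted p = 0.0282). LMNA, the gene of nuclear lamins A and C, fell to 553 ± 56.5 CPM in CCS1477, against 688 ± 59.2 CPM in DMSO, a log2 fold change of -0.36 ± 0.10 (adjusted p = 0.0261). LMNB2, a further nuclear lamin, was the other gene called lower, at -0.33 ± 0.11 (adjusted p = 0.0480). VIM, the filament of mesenchymal cells, named after its values were seen, had 1295 ± 101.7 CPM in CCS1477 and 1238 ± 176.9 CPM in DMSO and was not called (adjusted p = 0.943). The number of genes called was 1 without CCS1477 1, CCS1477 2 or DMSO 1, 2 without CCS1477 3, and 1, PRPH, on either TPM scale. NEFL was among the genes called without any 1 library. LMNA lost its call without CCS1477 1, CCS1477 2 or DMSO 1, and of these omissions PRPH kept its call only under that of DMSO 3 and LMNB2 only under that of DMSO 2. LMNB2 was also not called with RLE (relative log expression) factors in place of TMM or with scaling by library size.

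Of 10 genes whose products link or organise keratin filaments, 2 were called lower and 0 higher while 8 did not pass, and the median log2 fold change was -0.16. Of all tested genes, 10.7% were called lower and 17.9% in either direction. The count in this list is near the latter share. The 0 higher genes were also 0 at an unadjusted p under 0.05, in DESeq2 and in limma-voom. DSP, the desmoplakin that ties keratins to desmosomes, fell to 208 ± 8.59 CPM in CCS1477, against 257 ± 26.1 CPM in DMSO, a log2 fold change of -0.35 ± 0.09 (adjusted p = 0.0229). EVPL, the plakin envoplakin, fell to 84.9 ± 7.92 CPM in CCS1477, against 103 ± 3.12 CPM in DMSO (adjusted p = 0.0340). CSNK1A1, a kinase that acts with FAM83H on keratin organisation, stood at -0.18 ± 0.08 and did not pass (adjusted p = 0.134). The number called was 0 without CCS1477 1, CCS1477 2, DMSO 1 or DMSO 2, 1 without CCS1477 3, and 4 without DMSO 3. It was also 0 on either TPM scale.

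**Figure D5:**
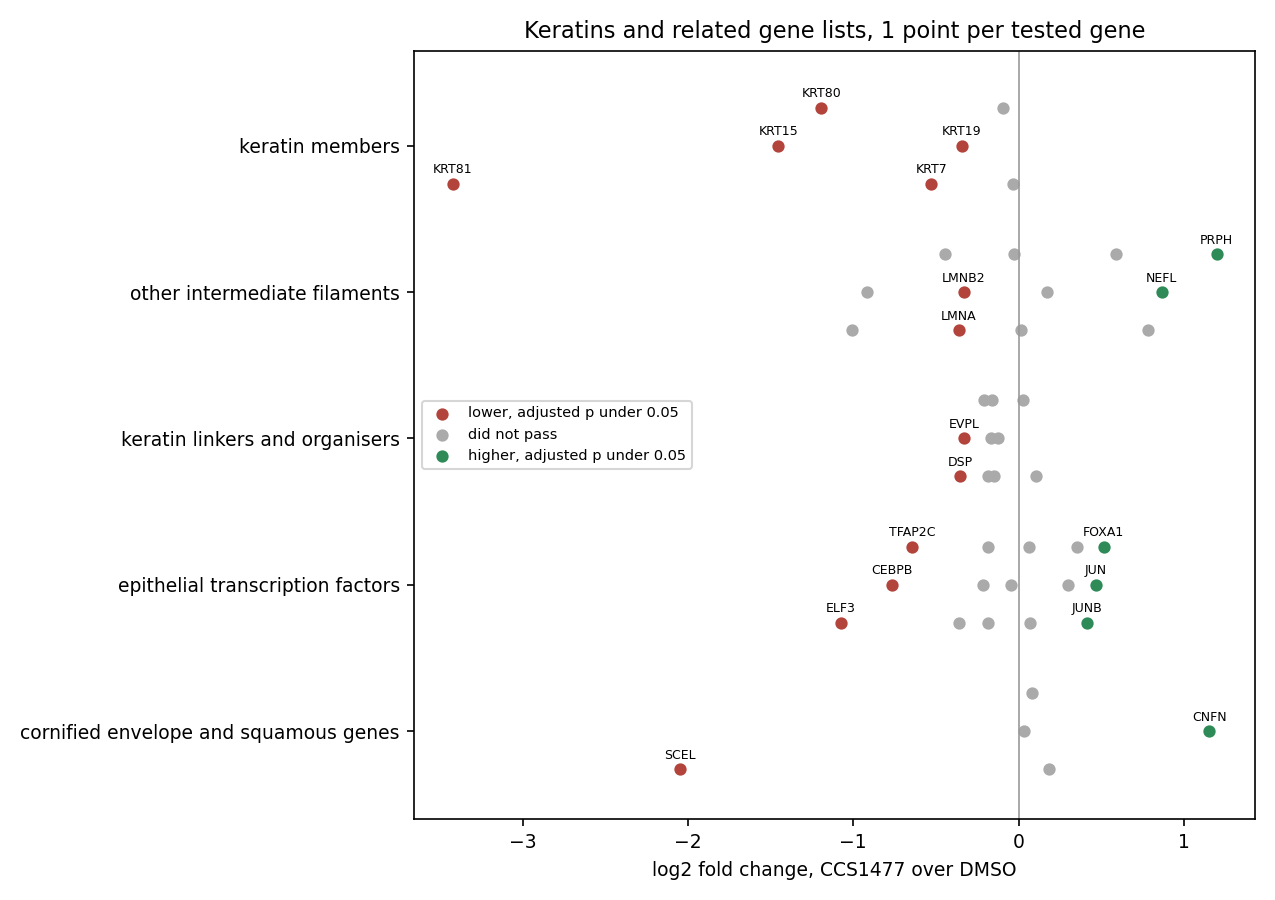
Log2 fold change, CCS1477 over DMSO, of every tested gene among the keratins and in 4 related gene lists, 1 point per gene, coloured by whether the adjusted p was under 0.05. The keratins, chosen with these values in view, lie at or below 0. The other lists hold points on both sides of 0, with 8 keratin linkers and organisers below 0 and 2 above.

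Transcription factors with roles in epithelial genes were split evenly. Among 15 tested genes 3 rose, 3 fell and 9 missed the threshold, and the median log2 fold change was -0.05. Over all genes tested, the shares were 7.23% higher and 10.7% lower. ELF3, an epithelial ETS factor, fell to 28.5 ± 2.42 CPM in CCS1477, against 58.4 ± 12.1 CPM in DMSO, a log2 fold change of -1.08 ± 0.15 (adjusted p = 0.00051). CEBPB fell at -0.76 ± 0.19 (adjusted p = 0.0157), and FOXA1, a luminal pioneer factor, rose at 0.52 ± 0.11 (adjusted p = 0.00828). The number called was 2 without CCS1477 3, 2 without DMSO 1, 4 without CCS1477 1, CCS1477 2 or DMSO 2, and 1, ELF3, on either TPM scale. ELF3 was called under every omission of 1 library, FOXA1 under all but that of CCS1477 3, and CEBPB under all but those of CCS1477 1 and DMSO 1.

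Genes of the cornified envelope and squamous differentiation, a programme that accompanies the stress and layer-specific keratins, were mostly silent. Of 23 in the files 9 had a read and 5 were tested, of which 1 was higher, 1 lower and 3 did not pass. For comparison, 17.9% of all tested genes were called in either direction, and 5 genes are too few to set against that share. SCEL, the gene of sciellin, fell to 6.73 ± 1.47 CPM in CCS1477, against 26.9 ± 0.240 CPM in DMSO, a log2 fold change of -2.05 ± 0.17 (adjusted p = 1.3e-05). CNFN, the gene of cornifelin, rose to 12.3 ± 3.23 CPM in CCS1477, against 5.37 ± 0.905 CPM in DMSO, a log2 fold change of 1.15 ± 0.23 (adjusted p = 0.00548). SFN, which encodes 14-3-3 sigma, stood at 0.08 ± 0.14 and did not pass (adjusted p = 0.735). Both calls were kept in all 16 alternative settings.

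The 10 epithelial markers summed to 1266 to 1398 CPM in CCS1477, against 1700 to 1798 CPM in DMSO. Where 10.7% of all tested genes were called lower and 7.23% higher, 5 of the markers were lower, 1 higher and 4 not passed. Among those called lower were CDH1, CDH3, CLDN4 and LAMB3, and ESRP2 was the 1 called higher, named here after their values were seen. Their part in the keratin values was not tested. The 8 immune markers summed to 30.1 to 34.0 CPM in CCS1477, against 43.1 to 53.8 CPM in DMSO, nearly all of it CD68, a lysosomal protein gene, while PTPRC, CD3D, CD3E and MS4A1 were at 0. The 7 fibroblast markers summed to 14.7 to 17.7 CPM in CCS1477, against 14.6 to 21.6 CPM in DMSO, nearly all of it COL1A1.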

How the data were processed

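RNA-seq of 6 libraries was deposited as estimated counts, which are not normalized, and as TPM, which the authors scaled by transcript length and library total. The submitters' processing notes list Trimmomatic 0.39, a read trimmer. The aligner, quantifier, build and strandedness are not given in those notes, the labels or the files. Of 58516 gene IDs also in GENCODE 29 (GRCh38), 86.9% had the same chromosome and both ends within 20 bases, and coordinates are those of the files.

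Counts were rounded, filtered by filterByExpr (minimum count 10, minimum total 15), scaled by TMM and compared by the quasi-likelihood test of edgeR 4.0.16, without covariates, with Benjamini-Hochberg adjustment over all 14928 genes tested and a threshold of 0.05. Every adjusted p comes from this fit. CPM used library totals without TMM factors. SEs came from the test statistic. A limit of 3 counts, and the 95% exact (Clopper-Pearson) interval, cover counting error only. The fit was tested on simulated data. DESeq2 1.42.0 and limma 3.58.1 were alternatives, in R 4.3.3, and plots used matplotlib 3.10.9.

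The members and lists were chosen with earlier results of these data known. Named genes were all members, other keratins passing the filter, up to 3 per list by adjusted p with 1 of opposite sign, cluster neighbours, the most read pseudogenes of members, and the 3 genes most like the highest member. KRT16, KRT4, KRT86, KRT7-AS, LMNB2, VIM, TP63, the marker genes and the KRT16 pseudogenes were named after their values were seen. Some genes and sequences are not reported here.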

Additional observations from a re-analysis of the deposited data

How the results depend on the processing

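Over all genes, 293 were higher and 427 lower on the log2(TPM + 1) scale, 280 and 410 on the log2(TPM + 0.1) scale, and 380 and 852 at a threshold of 0.01. Leaving out 1 library at a time gave 487 to 1311 higher and 925 to 1772 lower. Members called lower numbered 3 with a minimum count of 30, where KRT15 and KRT81 were no longer tested, 3 at a threshold of 0.01, and 3 to 5 when 1 library was left out. KRT7 and KRT80 were called lower in all of these. Other keratins called numbered 2 without a filter. Other intermediate filament genes called numbered 1 on the log2(TPM + 1) scale, 1 on the log2(TPM + 0.1) scale, 7 without a filter, 1 at a threshold of 0.01 and 1 to 4 without 1 library. Keratin linkers and organisers called numbered 1 with scaling by library size, 0 on the log2(TPM + 1) scale, 0 on the log2(TPM + 0.1) scale, 0 at a threshold of 0.01 and 0 to 4 without 1 library. Epithelial transcription factors called numbered 1 and 1 on the TPM scales, 2 at a threshold of 0.01 and 2 to 6 without 1 library. The log2 ratio of the summed TPM of the members, -0.19, ran from -0.23 to -0.14 without 1 library, and was -0.23 in summed CPM with or without the counts of pseudogenes and near-identical copies added. The causes were not tested. KRT81, with 7 counts over the 3 CCS1477 libraries, ran from -3.65 to -1.40 in log2 fold change, and depth limits what can be said of it and of KRT15, KRT5, KRT6A and KRT17.

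With the replicate number as a block, 799 genes were higher and 1306 lower, 4 members were lower (all but KRT19), 2 other intermediate filament genes were called, LMNA and NEFL, and 0 keratin linkers. The labels do not say that a number marks a shared batch, and same-numbered libraries did not deviate together, with correlations of -0.087, -0.20 and -0.0067 for numbers 1, 2 and 3. None of the CCS1477 libraries correlated best with the DMSO library of its own number.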

Other observations

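Copies of KRT16 annotated as pseudogenes were read almost exclusively in DMSO libraries, and KRT16P2 had more reads than KRT16 itself. KRT16P2 (chromosome 17, 16829999 to 16832830) had 0, 0 and 1 estimated counts in CCS1477 libraries 1 to 3, against 63.8, 55.9 and 60.9 in DMSO libraries 1 to 3. Scaled by depth, its level in CCS1477 was 0.00662 of that in DMSO, with an exact 95% interval of 0.00017 to 0.0373 for counting error only. It passed the filter on low counts only through the DMSO libraries, so no test is given. KRT16P1 had 0, 1 and 1 counts in CCS1477 libraries, against 4.14, 8.61 and 14.3 in DMSO libraries, and KRT16P3 had 0, 0 and 1 in CCS1477 libraries, against 9.05, 4.46 and 4.83 in DMSO libraries. Of the runs of 50 bases in KRT16P2 transcripts, 51.0% also occurred in KRT16P1 and 40.4% in KRT16P3, so the split of reads between the 3 loci is uncertain. The share found in any other keratin gene or pseudogene was 56.8%. How reads were split between KRT16P2 and KRT16 itself was not tested. The 3 loci were picked after their values were seen.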
